A study of Drosophila melanogaster with 8 samples.

Results

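Fatty acid elongases are the enzymes that lengthen fatty acids beyond the chain that fatty acid synthase makes. Of the fly's elongase genes, 10 were given by their gene identifiers, in a rule that uses no measured value although earlier results of these data were known when it was set, and all 10 were found in the deposited table of 11500 genes. They account for 20 of its 18387 listed transcripts: Baldspot (CG3971, 2 transcripts), bond (CG6921, 3), eloF (CG16905, 1), CG31522 (4), CG31523 (4), Elovl7 (CG2781, 1), CG5326 (2), CG33110 (1), sit (CG5278, 1) and CG8534 (1).

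The samples were heads of wild-type Canton-S flies kept in light-dark cycles at 1 of 3 temperatures (18°C, 25°C, 29°C), with no other treatment or allele named in the labels, and the measurement was RNA-seq of polyA RNA. Of the 8 libraries, 3 came from 18°C and 3 from 29°C, each with the times ZT3, ZT15 and ZT23, and 2 came from 25°C, with ZT3 and ZT15 only. ZT counts hours from lights on. The labels give the last time as ZT23, whereas the study's methods give ZT21, and the label's time is used here. The age and sex of the flies are not given in the sources used here. Each temperature and time was sampled by 1 library, so the times stand in for replicates of a temperature, and the spread between them holds both the time of day and the error of sampling.

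As background, an elongase of the ELO family carries out the first of the steps that add a pair of carbons to a fatty acyl-CoA, the condensation with malonyl-CoA. A ketoacyl-CoA reductase, a dehydratase and an enoyl-CoA reductase, shared by all elongases, complete the cycle. In insects the resulting very long chain fatty acids go into membrane lipids and, in the oenocytes, into the hydrocarbons that waterproof the cuticle and act as pheromones. Of the genes here, Baldspot is the fly relative of mammalian ELOVL6, bond is needed for male fertility, and eloF takes part in the synthesis of long-chain cuticular hydrocarbons in females.

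Values are the deposited coverage per base pair, scaled so that each library sums to 1000000, and a gene's level is the mean over its listed transcripts. Because coverage is averaged per base, the levels of different genes can be set side by side. Over the 8 libraries, 7 of the elongase genes had mean levels between 29.1 and 54.4, which placed them between the 81.4th and the 89.9th percentile of all listed genes. In order of the mean level these were Elovl7 at 54.4 ± 8.39, CG31523 at 51.0 ± 9.72, Baldspot at 46.8 ± 8.74, CG31522 at 44.6 ± 17.4, bond at 44.4 ± 12.9, CG33110 at 32.0 ± 11.1 and CG5326 at 29.1 ± 6.78 (SD over 8 libraries). Neighbours in this order differed by less than these SDs, apart from the step between bond and CG33110, which was also within the SD of bond. The gene sit was far lower, at 2.57 ± 1.37 (SD, n = 8), and CG8534 and eloF were at or close to 0 in 7 of the 8 libraries.

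The 29°C ZT15 library stood apart from the others and is described before the comparisons, since it carries all of the signal of a pair of elongase genes. In it, 237 of the 18387 transcripts were more than 20-fold above their level in every other library (1.29%, counting transcripts with a scaled level of at least 1 there), while no other library had any such transcript. Among them were 2 of the 20 elongase transcripts, those of CG8534 and eloF. CG8534 was listed at 0, 0.0592 and 0.0583 in the 18°C libraries (ZT3, ZT15 and ZT23), at 0 and 0.0211 in the 25°C libraries (ZT3 and ZT15), and at 0.132, 32.1 and 0 in the 29°C libraries (ZT3, ZT15 and ZT23). Its neighbour eloF was listed at 0, 0.0280 and 0.0511 at 18°C, at 0 and 0 at 25°C, and at 0, 11.6 and 0.0512 at 29°C. Both genes therefore passed the filter on low values through 1 library alone.

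Other members of the ELO family were high in the same library. Of 10 further ELO genes, 9 were higher in the 29°C ZT15 library than in any other, and 4 of them by more than 20-fold. The share of all genes with their highest level in this library was not computed, and 1.29% of all listed transcripts passed the 20-fold mark. These counts are therefore not set apart from those of other genes. CG30008 reached 24.7 there, against at most 0.564 in the other 7 libraries, and CG16904 reached 18.4, against at most 0.323. The summed level of the 10 genes was 66.1 in the 29°C ZT15 library and 1.53 to 3.16 in the others. CG16904, CG9459 and CG9458 follow eloF on the chromosome, in a run of 5 ELO genes that begins with CG8534, and all 5 had their highest level in this library.

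Sums of markers of tissues outside the head were also highest in the same library, though not every single marker was. The 4 listed accessory gland genes of a set of 6 (Acp26Aa, Acp36DE, Acp53Ea and SP, which encode seminal fluid proteins) summed to 121 in the 29°C ZT15 library and to 0.0979 to 0.36 in the others. The 2 listed midgut genes of a set of 4 summed to 385, against 0.0914 to 1.10. The 5 ovary genes summed to 51.0, against 2.43 to 3.08 at 25°C and 0.0890 to 0.320 in the 18°C and the other 29°C libraries. Of these 5, osk was at 30.2 in the 29°C ZT15 library, while Cp36 was at 0.147 there and at 0.167 in the 18°C ZT23 library. The 6 testis genes summed to 19.0, against 0.0239 to 0.522, with can and aly at only 0.0292 and 0.0560 in the 29°C ZT15 library. The part of these tissues in the levels of CG8534 and eloF was not tested.

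**Figure D1:**
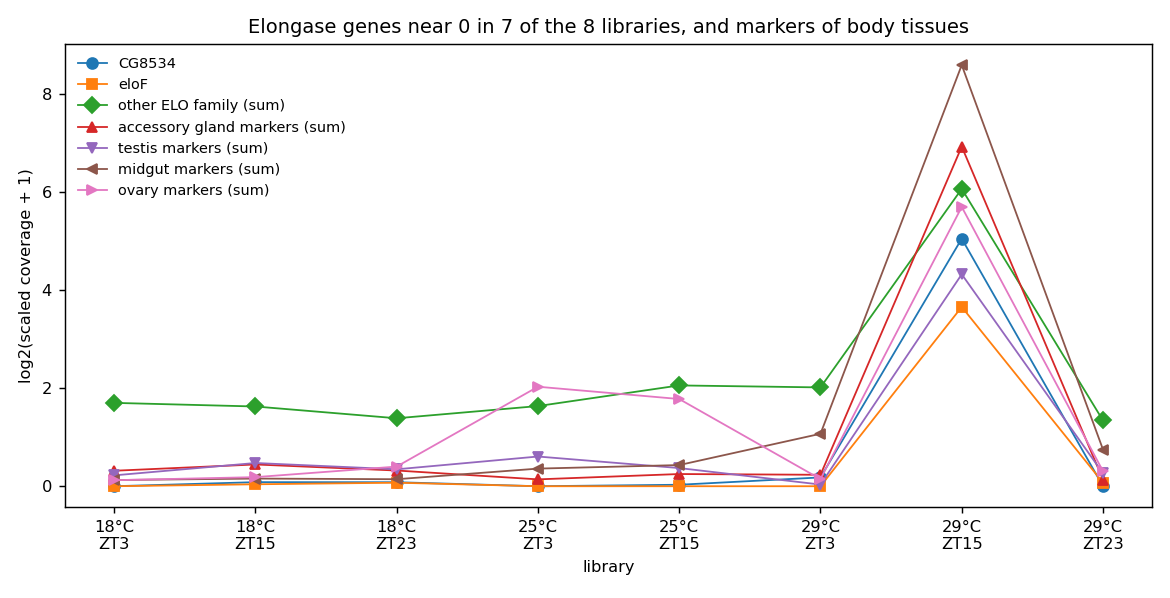
Scaled coverage on a log2(value + 1) axis (vertical) in each of the 8 libraries (horizontal, by temperature and time) for CG8534, eloF, the sum of 10 further ELO genes and the sums of 4 sets of body tissue markers. In the 29°C ZT15 library every line peaks (CG8534 at a scaled level of 32.1, eloF at 11.6), and CG8534 and eloF are at or near 0 elsewhere.

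**Figure D2:**
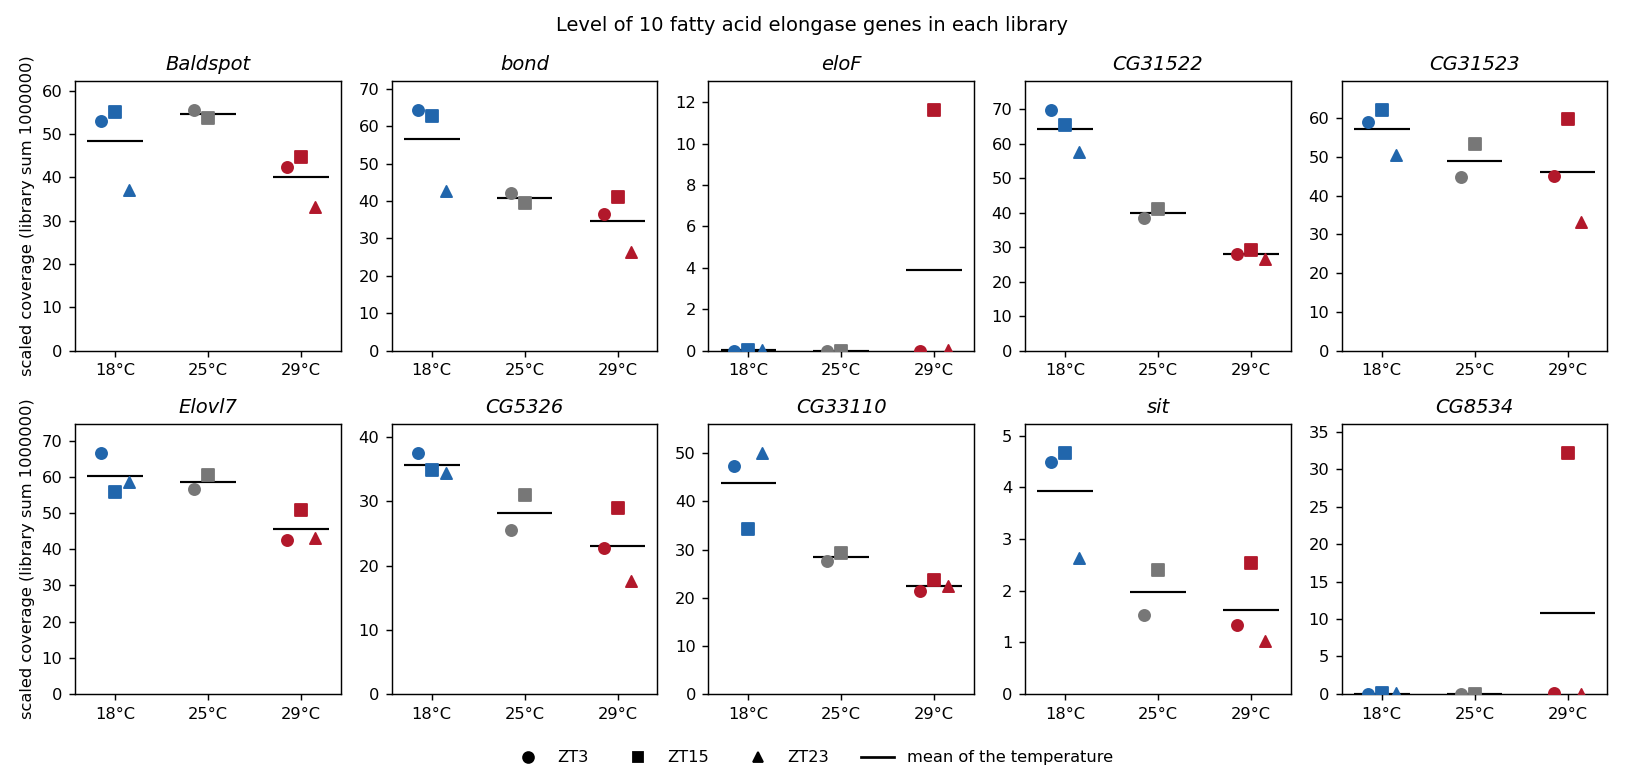
Level of each elongase gene (vertical axis, scaled coverage with each library summing to 1000000, starting at 0 and with its own range in each panel) at each temperature, in rising order. Each point is 1 library, its shape gives the time, and the line is the mean of the temperature. CG31522 goes down at each step of temperature with no overlap, at 57.7 to 69.9, 38.7 to 41.1 and 26.5 to 29.2.

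The question of how gene expression depends on temperature was addressed first between the extremes, 29°C and 18°C. Of the 10 elongase genes, 6 were lower at 29°C and 0 were higher (limma, Benjamini-Hochberg adjusted p under 0.05 over all genes). Over all 8424 genes tested, 16.2% were called lower and 14.3% higher. The 6 genes were CG31522, CG33110, sit, bond, CG5326 and Elovl7, and by transcript they made up 12 of the 20 (18% of all 14799 transcripts tested were called lower). The median log2 difference over the 10 genes was -0.52, beside -0.021 over all genes tested, and it includes CG8534 and eloF. In 6 elongase genes, the same 6, every 29°C library was below every 18°C library, which held for 26% of all genes. The 8 genes detected above a level of 1 in every library, which leaves out CG8534 and eloF, had a median of -0.66. Each of the 8 was lower at 29°C at all 3 times, and the share of all genes with this pattern was not computed. Of all 8424 genes tested, 4383 had a fitted difference below 0. Without the 29°C ZT15 library, 7 genes were called lower, CG31523 being added, of the 8 that could then be tested. CG8534 and eloF did not pass the filter in that fit, and the share of all genes called lower in it is not given here.

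The count depends on single libraries. It was 2 without the 18°C ZT3, the 18°C ZT15, the 29°C ZT3 or the 29°C ZT23 library, and 4 without the 18°C ZT23 library. The share of all genes called lower is not given for these fits. CG31522 and CG33110 were the genes called lower in every one of these fits.

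CG31522 showed the largest log2 difference among the genes called, with 1 added before the logarithm. Its level was 69.9, 65.4 and 57.7 in the 18°C libraries (ZT3, ZT15 and ZT23), 38.7 and 41.1 in the 25°C libraries (ZT3 and ZT15), and 28.2, 29.2 and 26.5 in the 29°C libraries (ZT3, ZT15 and ZT23). The 3 temperatures did not overlap, and the libraries of one temperature lay closer to each other than to those of the next. The mean was 28.0 ± 1.32 at 29°C and 64.3 ± 6.14 at 18°C (SD, n = 3 each), which is a log2 difference of -1.17 ± 0.11 (SE, limma adjusted p = 0.000599). In leaving out each library in turn, the difference ranged between -1.25 and -1.11. CG31522 had the highest mean of the family at 18°C, within the SD of the next (Elovl7, 60.4 ± 5.53), and the fifth highest at 29°C, below CG31523 (46.1 ± 13.3), Elovl7 (45.5 ± 4.56), Baldspot (40.1 ± 6.12) and bond (34.6 ± 7.61; SD, n = 3 each).

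CG33110 was next. It was at 47.3, 34.4 and 50.1 at 18°C, at 27.6 and 29.3 at 25°C, and at 21.4, 23.6 and 22.4 at 29°C. Again all libraries of the warmer temperature lay below those of the cooler, although the 18°C ZT15 library was well under the other two at 18°C. The log2 difference of 29°C from 18°C was -0.92 ± 0.15 (SE, limma adjusted p = 0.0033). The mean was 22.5 ± 1.13 at 29°C and 43.9 ± 8.39 at 18°C (SD, n = 3 each).

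The gene sit was lower at 29°C by about as much on the log2 scale as CG33110, at a far lower level. It was at 4.48, 4.66 and 2.62 at 18°C, at 1.53 and 2.40 at 25°C, and at 1.33, 2.54 and 1.03 at 29°C. Temperatures 29°C and 18°C were separated by a small gap only, between the 29°C ZT15 and the 18°C ZT23 library. The log2 difference was -0.92 ± 0.25 (SE, limma adjusted p = 0.0256), and, with 1 added before the logarithm, it understates the ratio of the means of 0.416 (29°C over 18°C). By this ratio sit fell slightly more than CG31522, at 0.434. The call was lost without the 18°C ZT3 (adjusted p = 0.0963), 18°C ZT15 (0.0905), 29°C ZT3 (0.0818) or 29°C ZT23 library (0.0772, limma).

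In bond the levels were 64.3, 62.7 and 42.7 at 18°C, 42.0 and 39.4 at 25°C, and 36.5, 41.2 and 26.3 at 29°C. At both 18°C and 29°C the ZT23 library was the lowest, and the groups were again separated by a small gap. The log2 difference was -0.69 ± 0.20 (SE, limma adjusted p = 0.0327), lost without the 18°C ZT3 (adjusted p = 0.121), 18°C ZT15 (0.108), 29°C ZT3 (0.0678) or 29°C ZT23 library (0.0869).

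CG5326 had levels of 37.5, 34.9 and 34.4 at 18°C, of 25.5 and 31.0 at 25°C, and of 22.8, 28.9 and 17.6 at 29°C. The 18°C libraries were close together and above all others, and the 29°C libraries were spread more widely. The log2 difference of 29°C from 18°C was -0.63 ± 0.17 (SE, limma adjusted p = 0.0258). It was lost without the 29°C ZT23 (adjusted p = 0.0585), 29°C ZT3 (0.0698), 18°C ZT23 (0.0572), 18°C ZT15 (0.0690) or 18°C ZT3 library (0.0913).

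Elovl7 had the smallest difference among the genes called. Its levels were 66.6, 55.9 and 58.6 at 18°C, 56.7 and 60.6 at 25°C, and 42.6, 50.7 and 43.0 at 29°C, so that the 29°C libraries stood below the rest while those at 25°C and 18°C overlapped. The log2 difference of 29°C from 18°C was -0.40 ± 0.12 (SE, limma adjusted p = 0.0311). It did not pass the threshold under scaling by the 75th percentile (-0.28, adjusted p = 0.0913) or quantile normalization (-0.21, adjusted p = 0.138), nor without the 29°C ZT23 (0.0829), 29°C ZT3 (0.103), 18°C ZT23 (0.0646), 18°C ZT15 (0.0523) or 18°C ZT3 library (0.117).

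Baldspot and CG31523 did not pass the threshold. Baldspot was at 53.1, 55.1 and 37.2 at 18°C, at 55.6 and 53.6 at 25°C, and at 42.5, 44.6 and 33.1 at 29°C, with a log2 difference of 29°C from 18°C of -0.26 ± 0.17 (SE, limma adjusted p = 0.291). With the time point as a block it was called at the same difference (limma adjusted p = 0.0454). CG31523 was at 59.0, 62.1 and 50.6 at 18°C, at 44.7 and 53.2 at 25°C, and at 45.1, 59.9 and 33.2 at 29°C. Its log2 difference was -0.34 ± 0.20 (SE, limma adjusted p = 0.231), and -0.55 (adjusted p = 0.0332) without the 29°C ZT15 library, the highest of the 3 at 29°C. For CG8534 and eloF the fitted differences of 1.69 ± 1.14 and 1.21 ± 0.84 (SE, limma adjusted p = 0.291 and 0.301) rest on that library alone.

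These differences compare levels within the total coverage of a library. How a library is scaled shifts all genes: the median log2 difference of 29°C from 18°C was -0.021 with the sum, 0.095 with the 75th percentile and 0.010 with quantile normalization, and 53%, 35.1% and 48.7% of the genes called were lower. The elongase genes called lower numbered 6, 5 and 5 under these scalings, Elovl7 being the one lost. With transcripts in place of genes, the counts were 12, 7 and 7. In whole heads, fewer cells of a type and less RNA per cell cannot be told apart. Some of the head's own markers moved with temperature as well: 5 photoreceptor genes (ninaE, trp, Arr1, Arr2 and norpA) summed to 21945 to 27036 at 29°C and to 12786 to 17367 at 18°C, with no overlap. The largest part of this sum was ninaE. Arr1 alone of the 5 overlapped, at 3256, 2661 and 2623 at 29°C and at 2226, 2795 and 2732 at 18°C (ZT3, ZT15 and ZT23). The 4 neuron and glia markers (elav, nSyb, brp and repo) summed to 299.8 to 348 at 29°C and to 270.4 to 355 at 18°C, which overlap, while the glial marker repo among them was at 17.3 to 17.4 at 29°C and at 20.4 to 23.6 at 18°C. The fat body gene takeout (to) and the genes of the yolk proteins (Yp1, Yp2, Yp3), 4 listed of 6 fat body markers, summed to 9921 to 16813 at 29°C and 13680 to 20023 at 18°C, which overlap. Yp2 and Yp3 were lower in every 29°C library than in any 18°C library. Yp1 was at 9126, 5304 and 9086 at 29°C and at 7093, 7606 and 5363 at 18°C (ZT3, ZT15 and ZT23). The level of takeout, 6.02 to 7.84 at 29°C and 6.87 to 12.3 at 18°C, added little to the sum. Of the oenocyte markers only svp (12.4 to 13.6 at 29°C and 13.1 to 15.1 at 18°C) and FASN2 were at hand, so this cell type could not be checked by its defining genes. FASN2 was at 1.17, 2.79 and 0.705 at 18°C (ZT3, ZT15 and ZT23) and at 0.328 and 0.393 at 25°C (ZT3 and ZT15). At 29°C it was at 0.310, 5.85 and 0.274 (ZT3, ZT15 and ZT23), so its highest level was in the 29°C ZT15 library. The part of any of these cell types in the elongase levels was not tested.

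**Figure D3:**
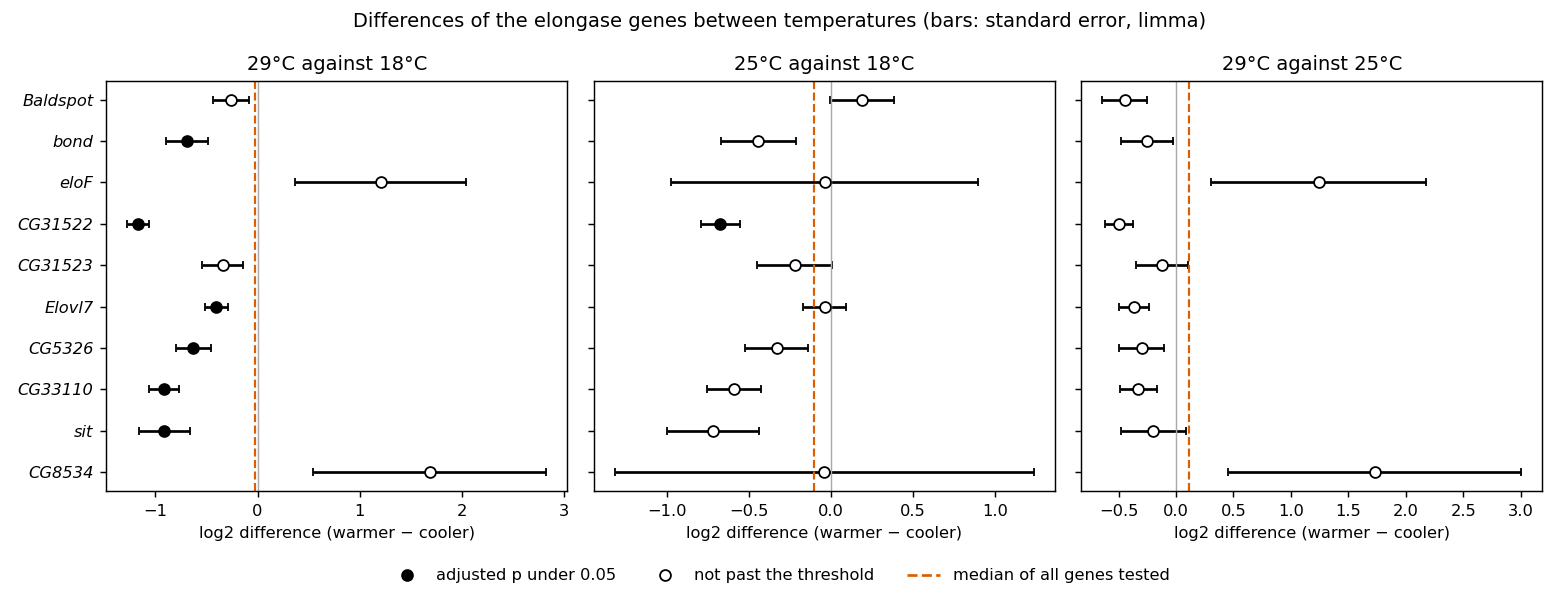
Log2 difference of each elongase gene (horizontal axis) in 29°C against 18°C, 25°C against 18°C and 29°C against 25°C, with the standard error from limma. Filled points have an adjusted p under 0.05, and the dashed line is the median of all genes tested (-0.021, -0.10 and 0.11). In the first panel 6 filled points lie below 0, and the wide bars are CG8534 and eloF, which rest on 1 library.

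Whether the difference arose between 25°C and 18°C or between 29°C and 25°C was examined next. Of the 10 genes, CG31522 alone was called between 25°C and 18°C, with a mean of 39.9 ± 1.71 over the 25°C libraries (SD, n = 2), against 64.3 ± 6.14 over the 18°C libraries (SD, n = 3), and a log2 difference of -0.67 ± 0.12 (SE, limma adjusted p = 0.0334). Over all genes tested, 2.3% were called lower and 1.08% higher. The call was lost without the 25°C ZT3 (adjusted p = 0.165), 18°C ZT3 (0.133), 18°C ZT15 (0.110), 29°C ZT3 (0.0653) or 29°C ZT23 library (0.0509). With the time point as a block, which compares ZT3 with ZT3 and ZT15 with ZT15, bond (-0.63, adjusted p = 0.0267) and sit (-0.91, adjusted p = 0.0260) were called as well. By transcript, 4 elongase transcripts were called lower (6.62% of all transcripts), all of CG31522, and 8 with the block. The block also raised the number of calls over all transcripts, as given in the closing section. Shares of all genes and transcripts called lower with the block are not given here, so these added calls are not set apart from those of other genes. Scaling mattered more in this comparison. The median of all genes was -0.10 with the sum, 0.033 with the 75th percentile and 0.017 with quantile normalization, and 68.1%, 31% and 38.3% of the genes called were lower. CG31522 was called lower under all 3 scalings. The fat body set led by Yp1, Yp2 and Yp3 summed to 43690 to 48091 at 25°C and to 13680 to 20023 at 18°C. The 5 ovary markers summed to 2.43 to 3.08 at 25°C and to 0.0890 to 0.320 at 18°C. The part of either set in these differences was not tested. CG33110 followed at -0.59 ± 0.16 (adjusted p = 0.0715), sit at -0.72 ± 0.28 (0.148), bond at -0.44 ± 0.23 (0.251) and CG5326 at -0.33 ± 0.19 (SE, limma adjusted p = 0.311). In 5 of the 10 genes every 25°C library was below every 18°C library, and this held for 32.6% of all genes.

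Between 29°C and 25°C no elongase gene passed the threshold, while 0.843% of all genes were called lower and 0.594% higher. At an unadjusted p under 0.05, limma gave 3 elongase genes (24.5% of all genes). The largest difference among the genes detected in every library was that of CG31522, at -0.50 ± 0.12 (SE, limma adjusted p = 0.0722). It passed under quantile normalization (adjusted p = 0.0405) and with 5 in place of 1 added before the logarithm (0.0487). Baldspot was at -0.45 ± 0.20 (adjusted p = 0.203) and Elovl7 at -0.36 ± 0.13 (SE, limma adjusted p = 0.140), with 29°C libraries all below the 25°C libraries in both, as in CG31522 and CG33110. This absence of overlap was seen in 4 of the 10 elongase genes, and in 13.2% of all genes. Because 25°C has no ZT23 library, the 2 groups differ in time as well as in temperature. With the time point as a block the difference was -0.44 in CG31522, -0.38 in CG33110, -0.34 in Elovl7 and -0.30 in Baldspot. It was -0.20 in CG5326, -0.067 in bond, -0.0096 in sit and 0.027 in CG31523.

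Across the 3 temperatures, the mean was lower at each step to a warmer temperature in 7 of the 10 genes (23.1% of all genes) and higher at each step in 0 (23.3% of all genes). In 2 genes, CG31522 and CG33110, each step was also free of overlap between libraries, which 4.91% of all genes showed. The 8 genes detected in every library differed in where the step between means lay. In Baldspot and Elovl7 the means at 25°C, 54.6 ± 1.40 and 58.6 ± 2.74, were close to those at 18°C, 48.4 ± 9.82 and 60.4 ± 5.53, whereas in bond and sit the means at 25°C, 40.7 ± 1.85 and 1.96 ± 0.62, were close to those at 29°C, 34.6 ± 7.61 and 1.63 ± 0.80 (values are mean ± SD, with n = 2 for 25°C and n = 3 for the others). This contrast between genes was not tested. The means at 25°C also hold no ZT23 library, and ZT23 was the lowest time of Baldspot, bond and sit at 18°C and 29°C. The summed level of the 8 genes was 402, 375 and 334 at 18°C, 292 and 311 at 25°C, and 240, 281 and 203 at 29°C, with no overlap between temperatures. This sum has no counterpart over all genes here.

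CG31522 has 4 listed transcripts, and CG31522-RB, which had the smallest adjusted p of the elongase transcripts together with CG31522-RD, was at 86.5, 81.2 and 69.8 at 18°C, 49.1 and 51.2 at 25°C, and 34.6, 35.9 and 32.2 at 29°C. CG31522-RC was the lowest of the 4 and made up 10.4% ± 1.31 of the gene's summed coverage at 18°C (SD, n = 3), 8.16% ± 1.13 at 25°C (n = 2) and 10.8% ± 0.845 at 29°C (n = 3). The other 3 each held between 28.2% and 31.5%. Transcripts of one gene share most of their exons, so their coverage values are not independent of each other.

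In CG5326 the share of CG5326-RA was 54.4% ± 0.757 in the 18°C libraries (n = 3), 57.6% ± 2.25 in those at 25°C (n = 2) and 58.1% ± 1.15 in those at 29°C (SD, n = 3). This was the clearest shift of transcript use in the family, and it did not pass the threshold in limma's diffSplice, which compares each transcript with the others of its gene (adjusted p = 1.00 for 29°C against 18°C). The BDGP6 annotation, used below for the order of genes, holds only 1 transcript of CG5326. A second test on the ratio of each transcript to its gene, chosen after seeing the data, gave an unadjusted p of 0.0119 for CG5326 and an adjusted p of 0.164 (limma). Of the 3011 genes with several distinct transcripts, 0.133% were called by diffSplice and 0.465% by the ratio test, none of them an elongase in either test.

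**Figure D4:**
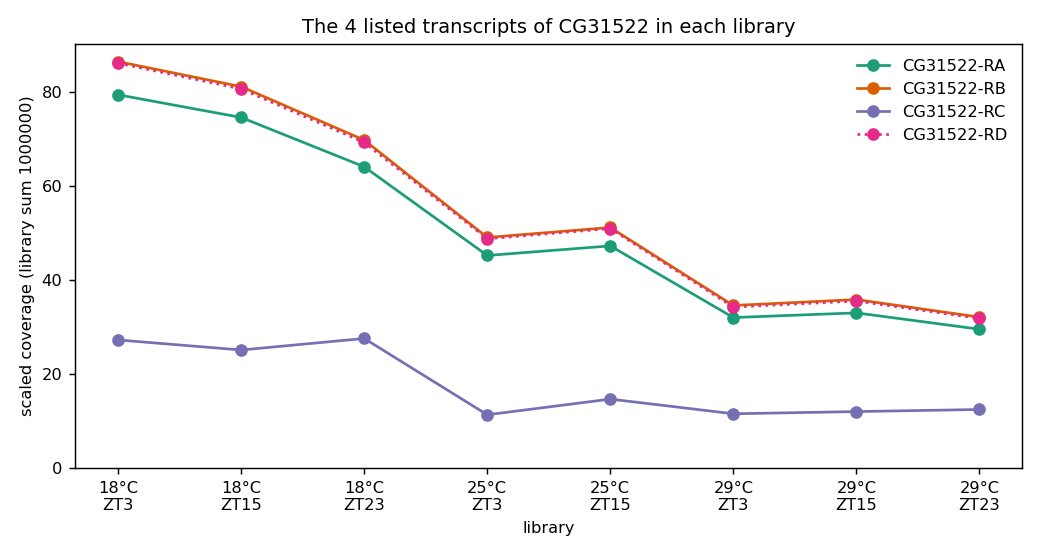
Scaled coverage (vertical axis, library sum of 1000000, starting at 0) of the 4 listed transcripts of CG31522 in the 8 libraries (horizontal axis). CG31522-RB and CG31522-RD lie on top of each other at 86.5 and 86.2 in the 18°C ZT3 library, all lines are lower at 29°C than at 18°C, and CG31522-RC is the lowest throughout.

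The elongase genes lie in groups on the chromosomes. In the BDGP6 annotation, Baldspot is on 3L and the other 9 are on 3R, where CG31522 and CG31523 are next to each other on the same strand, CG8534 and eloF begin the run of ELO genes named above, and CG5326, bond, sit and CG33110 follow each other with AdipoR between CG5326 and bond. The files use the dm3 build, for which no annotation was at hand, so only the order of genes is given. All 4 genes of the last group were called lower at 29°C than at 18°C. AdipoR, the fly's adiponectin receptor gene, was at 206, 225 and 168 at 29°C (ZT3, ZT15 and ZT23) and at 139, 153 and 129 at 18°C, with no overlap and in the other direction, at a log2 difference of 0.50 ± 0.15 (SE, limma adjusted p = 0.0323, and 0.0692 without the 29°C ZT15 library). CSN6, a subunit of the COP9 signalosome on the far side of CG33110, was at 14.6 to 17.3 at 29°C and 15.5 to 17.2 at 18°C, a log2 difference of -0.014 ± 0.10 (limma adjusted p = 0.933).

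In the pair CG31522 and CG31523, the first was called lower and the second was not, and the difference between them was not tested. CG14650, the gene on the other side of CG31522, was at 15.4, 17.3 and 17.5 at 29°C and at 12.6, 14.6 and 15.1 at 18°C (log2 difference 0.23 ± 0.13, SE, limma adjusted p = 0.215). CG31522, bond and CG8534 overlap antisense RNA genes in the annotation, and Baldspot overlaps a small nuclear RNA gene. Use of strand in the coverage is not given in the sources used here, so reads of the 2 strands cannot be told apart.

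**Figure D5:**
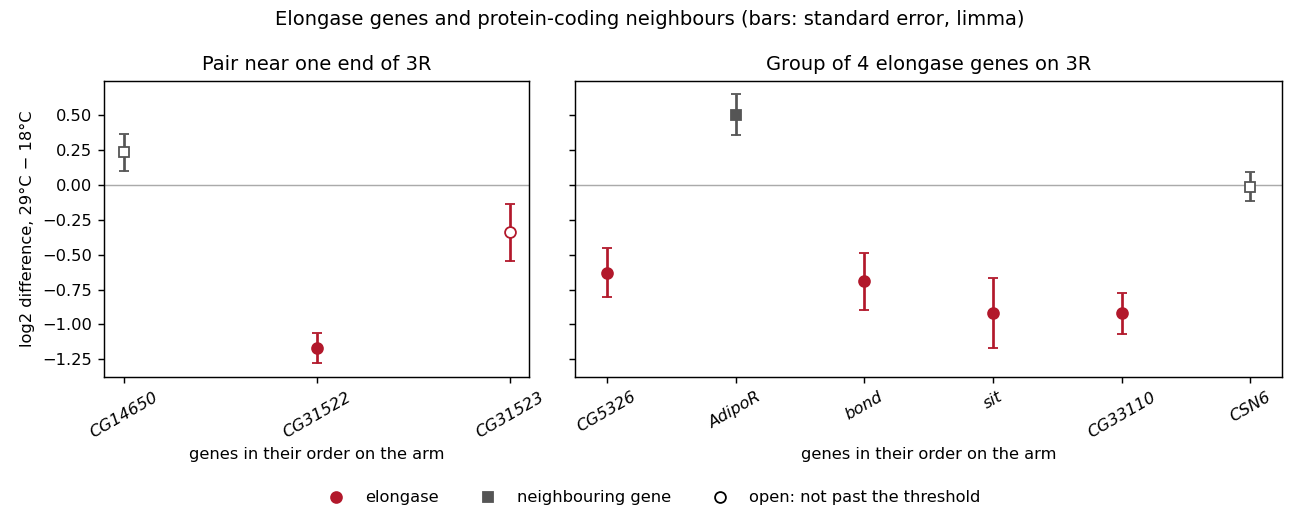
Log2 difference between 29°C and 18°C (vertical axis, with standard error from limma) of elongase genes (circles) and the neighbours CG14650, AdipoR and CSN6 (squares), in their order on 3R. The neighbour CG33093 was too low to be tested and is not shown. Filled symbols passed the threshold. CG5326, bond, sit and CG33110 lie between -0.63 and -0.92, and AdipoR, between CG5326 and bond, is at 0.50.

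Over the 8 libraries the 8 elongase genes detected in every library varied together to different degrees. The following correlations are descriptions over log2 levels, and their points share temperature, time and library. Among these 8 genes, Pearson's r was highest for bond and sit (0.93), CG5326 and sit (0.92) and CG31522 and CG33110 (0.91). It was lowest for Baldspot and CG33110 (0.20). The adjacent CG31522 and CG31523 had an r of 0.63. The pair eloF and CG8534, whose r rests on the 29°C ZT15 library, stood at 0.999, and the lowest r of either with another elongase was -0.38 (CG8534 and CG31522). Of transcripts of other genes, those most like CG31522-RB were yellow-c (CG4182-RA, r = 0.998), CG42269-RE (r = 0.995) and emp (CG2727-RB, r = 0.993), each over 8 libraries. The transcript of yellow-c, a gene of the yellow family, was at 134, 133 and 113 at 18°C, 79.3 and 84.1 at 25°C, and 54.9, 60.5 and 52.5 at 29°C.

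Of 4 genes for the other enzymes of the elongation cycle 3 were listed, and none of these was called between 29°C and 18°C, where 16.2% of all genes were called lower and 14.3% higher. The ketoacyl-CoA reductase gene spidey was at 65.1, 65.5 and 56.3 at 29°C and at 47.4, 47.7 and 54.6 at 18°C, with no overlap and a log2 difference of 0.32 ± 0.11 (SE, limma adjusted p = 0.0612). The dehydratase gene Hacd2 was at 0.22 ± 0.15 (adjusted p = 0.291) and the enoyl-CoA reductase gene Sc2 at 0.25 ± 0.16 (SE, limma adjusted p = 0.273). Hacd1 was not analysed here.

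Of 4 listed genes of fatty acid supply (a set of 5), 1 was lower and 0 were higher at 29°C, a count too small to be set apart from the 16.2% called lower among all genes. This was ACC, the acetyl-CoA carboxylase that makes the malonyl-CoA used by elongases, at 95.3, 78.0 and 97.9 at 29°C and 146, 135 and 130 at 18°C (log2 difference -0.60 ± 0.12, SE, limma adjusted p = 0.00793). ATPCL, FASN1 and FASN2 were not called, the fatty acid synthase gene FASN1 being at -0.033 ± 0.16 (adjusted p = 0.890, limma). Of 4 listed genes of very long chain activation and hydrocarbon formation (a set of 5), 1 was again lower and 0 were higher, beside the same 16.2%. This was Fatp1, a fatty acid transport protein, at 56.2, 67.0 and 49.5 at 29°C and at 93.1, 108 and 83.1 at 18°C (-0.71 ± 0.15, SE, limma adjusted p = 0.0099). Acsl, bgm and Cpr did not pass, and with the time point as a block Acsl was called at the same difference of -0.40 (limma adjusted p = 0.0188, against 0.0905 without the block). Of the 10 further ELO genes, 4 passed the filter, all with the help of the 29°C ZT15 library, and 0 were called.

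The time of day was compared with temperature as a term in the model. No gene and no transcript passed the threshold in any of the 3 contrasts of time (0% of all genes and transcripts, limma). At an unadjusted p under 0.05, limma gave 1 elongase gene for ZT15 against ZT3 (19.6% of all genes), 3 for ZT23 against ZT3 (13.3%) and 4 for ZT23 against ZT15 (23.3%). These 4 were sit at -0.74 ± 0.14 (adjusted p = 0.106), CG31523 at -0.56 ± 0.14 (0.121), bond at -0.56 ± 0.10 (0.0954) and Baldspot at -0.47 ± 0.094 (SE, limma adjusted p = 0.106). In each of the 4 the ZT23 library was below the ZT15 library at both 18°C and 29°C, which their selection by this same contrast makes likely. Of all 8424 genes tested, 6221 had a fitted difference below 0. Without the 29°C ZT15 library the differences of the 4 genes, in the same order, were -0.64, -0.42, -0.48 and -0.47. In bond, ZT23 had 26.3 and ZT15 41.2 at 29°C, and ZT23 had 42.7 and ZT15 62.7 at 18°C. By transcript, 5 elongase transcripts were called lower at ZT23 than at ZT15 when 5 was added before the logarithm (2.01% of all transcripts) or when a mean level of at least 5 was asked for (3.39%), and 3 with limma's trend option (2.38%). Transcripts of 1 gene share exons, so these are not counts of separate genes, and no count by gene is given for these settings. CG31522 was at -0.17 ± 0.096 for ZT23 against ZT15 (SE, limma adjusted p = 0.317).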

How the data were processed

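PolyA RNA of fly heads was sequenced by the authors with paired-end reads, which they mapped to the dm3 build. The deposited signal is the coverage of a transcript, averaged over its length in base pairs. The submitters' processing notes name Bowtie2, TopHat and Cufflinks, without versions. Any scaling of the deposited coverage is not given in the sources used here. The values are not whole numbers and sum to between 92886 and 108550 per library, so the number of reads is unknown and no counting error is given. A further 75 columns without a name, with values in 99 rows, were not used.

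Libraries were brought to a common sum of 1000000, log2(value + 1) was taken, and genes or transcripts averaging at least 1 on the scaled values were kept. A gene was the mean over its distinct transcripts. For the contrasts, limma 3.58.1 (R 4.3.3) fitted the 8 libraries together, and p-values were adjusted over all features by Benjamini-Hochberg, with a threshold of 0.05. A log2 difference is on the log2(value + 1) scale and understates the change of low genes. Nothing says that libraries came from separate cultures, so p-values measure only the spread between these libraries, of which the time of day is part. Replicate numbers mark the time point in the labels and so pair libraries across temperatures: same-time libraries at 18°C and 29°C deviated together with r of 0.0961 (ZT3), 0.164 (ZT15) and 0.311 (ZT23). The time point as a block was an alternative. The alternatives were planned for transcripts, and their use on gene levels was added after seeing the data. The procedure was tested on simulated data. Figures were made in Python 3.11.15 (matplotlib 3.10.9).

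Elongase members, pathway lists and markers were chosen with earlier results of these data known. Named genes are all 10 elongases, pathway members past the threshold with values, markers, protein-coding neighbours (added after seeing the data) and the 3 transcripts most like the elongase transcript of smallest adjusted p. Outside this rule, and with their values seen, the other pathway members and a few further ELO genes are also named. The gene CG9460 was dropped from the list of further ELO genes, since the reference annotates it as a serpin. Names came from the reference tables, which matched 11381 of 11500 genes. A planned comparison of elongase proteins was not run, and no sequences are shown.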

Additional observations from a re-analysis of the deposited data

How the results depend on the processing

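Between 29°C and 18°C, CG31522 and CG33110 kept their call in every alternative run. The 4325 transcripts called became 2316 to 4523, and the 2566 genes 1402 to 2607, when 1 library was left out (fewest without 18°C ZT3). The 12 elongase transcripts became 7 with 75th percentile scaling, 7 with quantile normalization and 5 to 16 with 1 library left out (5 without 18°C ZT3, 18°C ZT15 or 29°C ZT3). The gene bond lost its call with no filter on low values (adjusted p = 0.0557, limma).

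Between 25°C and 18°C, the 1214 transcripts called became 654 with quantile normalization, 594 with 0.1 in place of 1 added before the logarithm, 3639 with the time point as replicate block, and 1 to 2647 with 1 library left out (1 without 25°C ZT3, 2647 without 25°C ZT15). The 4 elongase transcripts became 1 with either of the other scalings, 8 with the replicate block and 0 to 5 with 1 library left out. The log2 difference of Elovl7, -0.038, turned to 0.12 with the 75th percentile and 0.14 with quantile normalization, and was -0.091 to 0.033 with 1 library left out (0.033 without 18°C ZT3, 0.0086 without 25°C ZT3).

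Between 29°C and 25°C, the 138 transcripts became 335 (75th percentile), 434 (quantile), 69 (0.1 added), 363 (5 added), 289 (minimum mean of 5), 336 (limma trend), 726 (replicate block) and 5 to 1087 with 1 library left out (5 without 25°C ZT3, 1087 without 25°C ZT15). The 0 elongase transcripts became 3, 3 and 3 with the 75th percentile, quantile normalization and the replicate block, and 1 with 5 added. The difference of CG31523, -0.12, turned to 0.027 with the replicate block and was -0.33 to 0.090 with 1 library left out (0.090 without 29°C ZT23, 0.0030 without 25°C ZT15), and that of sit, -0.20, was -0.43 to 0.018 (0.018 without 25°C ZT15).

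For time, the 0 transcripts of ZT15 against ZT3 became 7 with 5 added, 5 with a minimum mean of 5 and 0 to 14 with 1 library left out, and those of ZT23 against ZT3 0 to 11 (14 and 11 both without 29°C ZT15). For ZT23 against ZT15 they became 326, 473 and 385 with 5 added, a minimum mean of 5 and the trend option, with 5, 5 and 3 elongase transcripts. The 4 genes called for transcript use became 14 with the ratio test, chosen after seeing the data, and 0 to 4 with 1 library left out. The cause of these changes was not tested, beyond fewer libraries or features in the fit. The replicate block changed no elongase gene's call other than those of Baldspot, bond and sit given above. With 1 library per temperature and time and no read counts, small differences could not be resolved.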
